A study of Mus musculus with 6 samples.

Results

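The 9 genes described here encode enzymes of pyruvate entry and of the mitochondrial tricarboxylic acid (TCA) cycle, together with Idh1, a cytosolic enzyme that makes the same conversion as the cycle's isocitrate dehydrogenases. They are Pdha1, Cs, Idh1, Idh2, Idh3a, Ogdh, Suclg1, Fh1 and Mdh2. They were chosen by name from the 54532 genes in the count file, with earlier results of these data known. All 9 passed the filter on low counts that 15938 genes passed. The samples were 6 cultures of CD4+ T cells isolated by negative magnetic selection from spleens of young adult male C57BL/6 mice. All cultures were stimulated with plate-bound anti-CD3 and anti-CD28 under Th1 conditions, that is with IL-2, IL-12p70 and anti-IL-4, and were sampled at 72 h. In 3 cultures, here called ALX-5407-treated Th1 cells, the medium held 500 nM ALX-5407, which blocks the plasma membrane glycine transporter GlyT1, and the other 3, here called Th1 cells, received vehicle (DMSO). The sample titles give 72 h of Th1 culture with ALX-5407 treatment, without a separate time for the inhibitor. The study's culture methods likewise describe treated cultures harvested at 72 h, whereas its RNA sequencing methods give a shorter exposure. The labels call the cultures biological replicates without saying whether they came from separate animals, so the p-values measure only the spread between these cultures. The study reports that survival of the cells started to drop at this dose of ALX-5407. The comparison asked how the TCA cycle genes of Th1 cells differed with the inhibitor, and the counts do not measure glycine uptake.

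The pyruvate dehydrogenase complex converts pyruvate from glycolysis into acetyl-CoA, and citrate synthase joins it to oxaloacetate to make citrate. The cycle then oxidises citrate step by step back to oxaloacetate, releasing carbon dioxide and passing electrons to the respiratory chain. In activated T cells much of the pyruvate leaves as lactate, and the cycle also supplies citrate for lipid synthesis, aspartate for nucleotides, and acetyl-CoA and 2-oxoglutarate, on which enzymes that modify chromatin depend. The complexes that oxidise pyruvate and 2-oxoglutarate share a lipoyl cofactor and the E3 subunit Dld with the glycine cleavage system.

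Total counts lay between 30801753 and 36727788 per library, and scaling factors from the trimmed mean of M-values (TMM) between 0.965 and 1.028. Levels are given as CPM, the standard expression of a gene's reads relative to the total of its library, here after TMM scaling. A gene was called higher or lower at a Benjamini-Hochberg adjusted p under 0.05 in edgeR's quasi-likelihood test over all 15938 genes. The T cell markers Cd3d, Cd3e, Cd3g, Cd4, Cd28, Cd5, Lck and Tbx21 summed to between 2650 and 2770 CPM in Th1 cells and between 2710 and 2740 CPM in treated cells. Of these 8 markers, 3 were higher and 3 lower. B cell markers (5 genes) summed to 7.60 to 8.84 CPM in Th1 cells and 11.4 to 14.4 CPM in treated cells, with 3 higher and 0 lower, and CD8 T cell and NK cell markers (4 genes) to 9.64 to 9.72 and 6.71 to 8.98 CPM, with 1 lower. Of 10 myeloid markers, S100a8 and S100a9 had no count in any library, 2 were tested and 1 of them, Ly6g, was lower. The list's sum was 71.6 to 76.4 CPM in Th1 cells and 25.1 to 32.6 CPM in treated cells, of which Ly6g made up means of 72.2 and 27.0 CPM. Erythroid markers (5 genes) stayed at or under 0.390 CPM in sum. Genes of the mitochondrial genome held 2.67% to 3.12% of the counts in Th1 cells and 1.94% to 2.05% with ALX-5407. The part of these differences in the results below was not tested.

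Of the 9 enzymes, 4 rose in ALX-5407-treated Th1 cells and 0 fell. The 4 were citrate synthase (Cs), the cytosolic and mitochondrial isocitrate dehydrogenase genes Idh1 and Idh3a, and the 2-oxoglutarate dehydrogenase gene Ogdh. Over all genes tested, 24.5% were called higher and 23.2% lower (47.7% in either direction), and among the 6054 genes with a mean of at least 1000 counts, which include all of the enzymes but Idh1, 34.7% were called higher and 28.3% lower. The 5 others, Pdha1, Idh2, Suclg1, Fh1 and Mdh2, did not pass the test. No enzyme was lower at an unadjusted p under 0.05 in edgeR, and 0 were called lower by DESeq2 or limma-voom. The rises were moderate: none of the 9 passed the study's fold threshold (an absolute log2 fold change over 1), which 3.36% of all genes passed in the upward direction. The median log2 fold change over the 9 enzymes was 0.157, against 0.0053 over all genes tested. Over the genes with a mean of at least 1000 counts it was 0.0465, and the differences between these medians were not tested. Counts of all 9 enzymes together came to 1138 ± 32.6 CPM in Th1 cells and 1369 ± 25.9 CPM in treated ones (SD, n = 3 each). The sums of the treated cultures, from 1339 to 1387 CPM, all lay above those of the untreated ones, from 1102 to 1165 CPM. Of the difference of 230.3 CPM, Cs made up 50.1% and Ogdh 29.0%. In bulk cultures, a change in RNA per cell and a change in the mix of cells cannot be told apart.

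**Figure D1:**
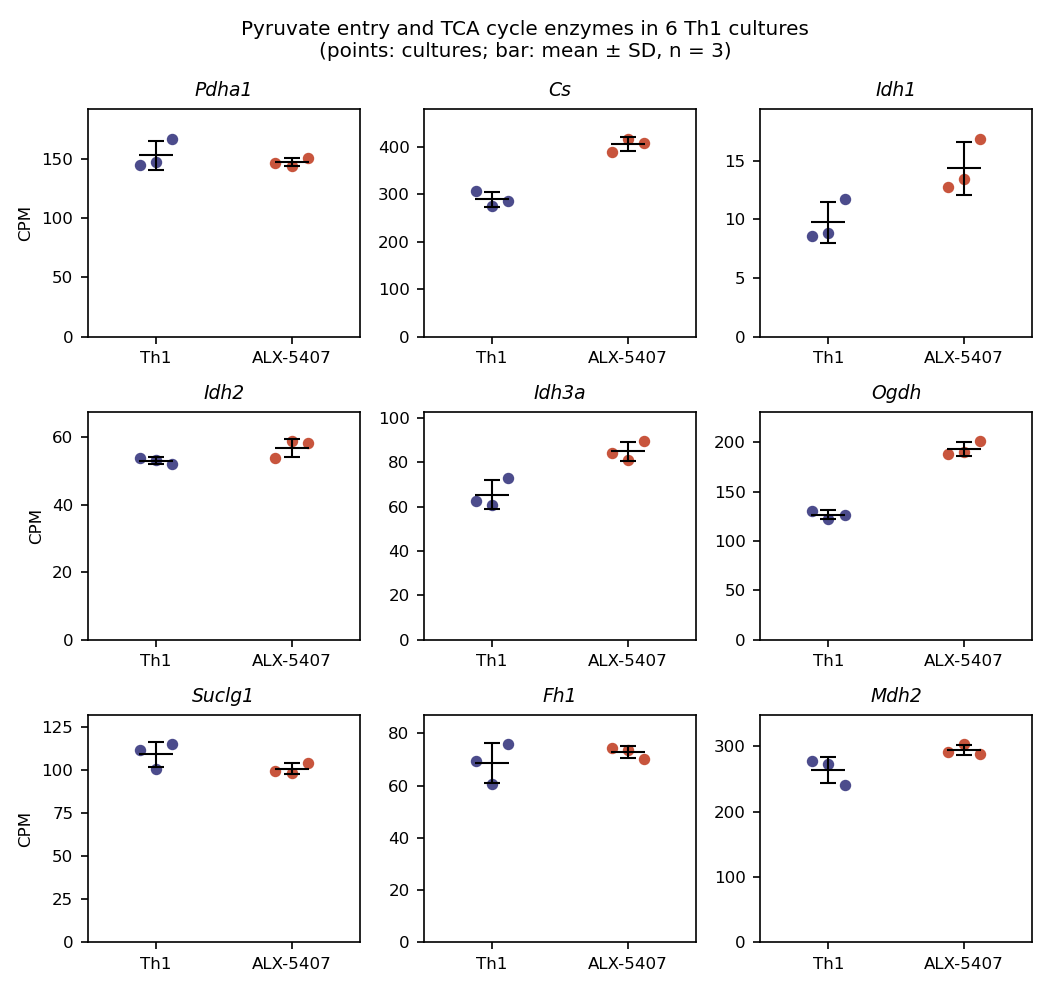
Level of each of the 9 enzyme genes (CPM, linear axis from 0) in 3 Th1 and 3 ALX-5407-treated cultures; points are cultures and bars the mean ± SD. The treated cultures lie above all untreated ones for Cs, Idh1, Idh2, Idh3a, Ogdh and Mdh2, by a mean of 115 CPM for Cs and 66.6 CPM for Ogdh.

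Pdha1 (chromosome X, 160122209 to 160138413, GRCm38) encodes the E1 alpha subunit of pyruvate dehydrogenase, the subunit whose phosphorylation switches the complex off. Its level was 145, 148 and 167 CPM in Th1 cells and 147, 144 and 151 CPM in treated cells. The groups overlapped, with the highest value in the third Th1 culture, and the log2 fold change was -0.058 with a standard error of 0.0738 (edgeR, adjusted p = 0.553). The 95% interval of the log2 fold change reached from -0.21 to 0.099. Exons of Map3k15 on the opposite strand cover 16.1% of the exon bases of Pdha1, and no more than 94 reads were counted on that gene in any library. The pseudogene 4930519F09Rik, which matches 39.2% of the Pdha1 transcript, had at most 7. As the counting settings are not given, it is not known whether Pdha1 lost reads to these overlaps.

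Citrate synthase, which makes the first intermediate of the cycle, is encoded by Cs (chromosome 10, 128337734 to 128362479). Its level was 307, 276 and 286 CPM in Th1 cells and 389, 417 and 408 CPM in treated cells. Each treated culture thus lay above each untreated one, and the gap between the groups was wider than the range within either. Cs rose 1.40-fold, a log2 fold change of 0.48 with a standard error of 0.071 (edgeR, adjusted p = 3.52e-05). The related sequences that could share reads with Cs, the citrate synthase-like gene Csl and the processed pseudogene Gm48254, had at most 3 counts in any library. Whether reads that map to Cs and to a copy were counted is not known.

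Isocitrate dehydrogenase exists as a cytosolic NADP-dependent enzyme (Idh1), its mitochondrial counterpart (Idh2), and the NAD-dependent IDH3 of the cycle itself, whose catalytic subunit is Idh3a. Idh1 (chromosome 1, 65158616 to 65186500) had the fewest reads of the 9, with 281, 278 and 362 reads in Th1 cells and 450, 501 and 593 reads with ALX-5407. In CPM these were 8.63, 8.87 and 11.8 against 12.7, 13.4 and 16.9. The groups did not overlap, although the third Th1 culture lay close to the lowest treated one. Idh1 rose 1.47-fold (log2 fold change 0.56 with a standard error of 0.146, edgeR adjusted p = 0.00465). Idh2 (chromosome 7, 80094846 to 80115392) was at 53.8, 53.4 and 52.0 CPM in Th1 cells and 53.9, 58.8 and 58.2 CPM in treated cells. All treated values were above the untreated ones, but the lowest only narrowly, and the difference did not pass the test (log2 fold change 0.10, 95% interval -0.055 to 0.26, adjusted p = 0.280 in edgeR). The ratio of Idh1 to Idh2, taken per kilobase within each library and therefore free of library scaling, was 0.172 ± 0.0340 in Th1 cells and 0.235 ± 0.0317 in treated cells (SD, n = 3 each; two-sided exact permutation p = 0.1). That is the smallest p that 3 against 3 cultures can give.

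Idh3a (chromosome 9, 54586334 to 54604661) had 62.6, 60.6 and 72.9 CPM in Th1 cells and 84.4, 81.0 and 89.4 CPM in treated cells. Again the third Th1 culture was the highest of its group without reaching the treated range. Idh3a rose 1.30-fold (log2 fold change 0.38 with a standard error of 0.0821, edgeR adjusted p = 0.00122).

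Ogdh (chromosome 11, 6291633 to 6356642), the E1 subunit of the complex that turns 2-oxoglutarate into succinyl-CoA, had the smallest p-value of the 9 and ranked 874 by p-value among all genes tested. Its level was 131, 122 and 127 CPM in Th1 cells and 188, 191 and 201 CPM in treated cells. No untreated culture came within 50 CPM of a treated one. Ogdh rose 1.53-fold (log2 fold change 0.61 with a standard error of 0.069, edgeR adjusted p = 2.42e-06). The 3 genes whose log2 CPM over the 6 libraries correlated best with that of Ogdh were Gm11714, Eif2b5 and Rflnb (Pearson's r 0.9999, 0.9989 and 0.9989). These points share their 6 libraries and the difference between groups, and the values are a description only.

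Succinyl-CoA ligase, whose alpha subunit is Suclg1 (chromosome 6, 73248382 to 73276911), releases succinate with the formation of a nucleoside triphosphate. Suclg1 was at 112, 101 and 115 CPM in Th1 cells and 99.4, 98.6 and 104 CPM in treated cells, with overlapping groups (log2 fold change -0.11, 95% interval -0.27 to 0.041, edgeR adjusted p = 0.216). Fumarate hydratase, encoded by Fh1 (chromosome 1, 175600374 to 175625635), adds water to fumarate to give malate. Its levels of 69.2, 60.7 and 75.8 CPM in Th1 cells enclosed those of the treated cells, 74.4, 73.6 and 70.2 CPM (log2 fold change 0.085, 95% interval -0.092 to 0.26, edgeR adjusted p = 0.429). The second Th1 culture, the lowest, set the sign for Fh1: without it the log2 fold change was -0.0075, and without the third it was 0.146, neither past the test. Mitochondrial malate dehydrogenase, encoded by Mdh2 (chromosome 5, 135778480 to 135790398), closes the cycle. It had 277, 273 and 241 CPM in Th1 cells and 291, 303 and 289 CPM in treated cells. The treated values were all above the untreated ones, with the third Th1 culture the lowest, and the difference did not pass the test (log2 fold change 0.16, 95% interval 0.0014 to 0.31, edgeR adjusted p = 0.0905). Without the third Th1 culture the log2 fold change of Mdh2 was 0.080, and with library totals in place of TMM factors it was 0.217 and passed (edgeR adjusted p = 0.0172). In all, 6 of the 9 enzymes had every treated culture above every untreated one, which 28.4% of all genes tested did, and 0 had every treated culture below, against 27.1% of all genes.

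Levels of different genes were compared per kilobase of merged exon length (FPKM, from CPM). Merged exons join all annotated transcripts and can exceed any single transcript. For Cs they span 5779 bases against 2926 in its longest protein-coding transcript, and for Pdha1 3734 against 2848. The order between genes therefore depends on the length used, whereas comparisons of 1 gene between groups do not. In Th1 cells Mdh2 stood highest at 74.0 ± 5.52 FPKM, followed by Cs (50.1 ± 2.72), Pdha1 (41.0 ± 3.27), Suclg1 (23.6 ± 1.60), Ogdh (23.2 ± 0.814), Idh2 (20.5 ± 0.363), Fh1 (20.2 ± 2.23), Idh3a (12.9 ± 1.30) and Idh1 (3.52 ± 0.630; SD, n = 3 throughout). Of these neighbours, Suclg1 and Ogdh overlapped between cultures, as did Idh2 and Fh1, and the other neighbours did not. With ALX-5407, Ogdh (35.4 ± 1.25 FPKM) stood just below Pdha1 and clear of Idh2 (22.0 ± 1.03), Suclg1 (21.8 ± 0.689) and Fh1 (21.4 ± 0.664), which overlapped each other in that order. Mdh2 (82.5 ± 2.17 FPKM), Cs (70.0 ± 2.52) and Pdha1 (39.4 ± 0.893) kept the first places and Idh3a (16.7 ± 0.836) and Idh1 (5.18 ± 0.807) the last.

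The sequences just upstream of the transcription starts of Cs, Ogdh and Idh1 are shown because these 3 genes rose together (RefSeq, GRCm38.p6). The table used holds entries for 8 of the 9 enzymes, not for Idh3a. Each run is the 200 bases before the start, 5′ to 3′ on the gene's strand. For Cs it is chr10:128337527-128337726 (+ strand), for Ogdh chr11:6291397-6291596 (+ strand) and for Idh1 chr1:65186480-65186679 (- strand). Capitals mark the CCAAT box (CCAAT, or ATTGG on the other strand) and the GC box (GGGCGG, or CCGCCC).
Cs: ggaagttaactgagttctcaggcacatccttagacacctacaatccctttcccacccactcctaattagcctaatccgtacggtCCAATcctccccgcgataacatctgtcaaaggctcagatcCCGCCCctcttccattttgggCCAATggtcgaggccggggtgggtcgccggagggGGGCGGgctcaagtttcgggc
Ogdh: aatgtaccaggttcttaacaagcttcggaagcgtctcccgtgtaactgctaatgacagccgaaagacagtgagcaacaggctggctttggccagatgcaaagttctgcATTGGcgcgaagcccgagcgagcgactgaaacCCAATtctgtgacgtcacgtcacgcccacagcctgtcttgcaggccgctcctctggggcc
Idh1: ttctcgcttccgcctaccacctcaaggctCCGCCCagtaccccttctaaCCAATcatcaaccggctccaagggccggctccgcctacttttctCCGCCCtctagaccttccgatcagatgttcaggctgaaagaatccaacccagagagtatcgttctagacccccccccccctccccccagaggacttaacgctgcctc
A CCAAT box stood in all 3 of these windows, in those of Idh2 and Fh1, and in none of Suclg1, Mdh2 and Pdha1. Of 32851 promoters of the same window, 29.3% held one. A GC box stood in 4 of the 8 windows, those of Cs, Idh1, Idh2 and Fh1, and in 31% of all promoters. The E-box (CACGTG), the ETS core (CCGGAA), the NRF1 core (CATGCGC), the ERR half-site (AAGGTCA) and the ATF4 response element (TGATGNAA), also searched on both strands, were found in none of the 8 windows. They occur in 5.26%, 10.7%, 2.92%, 3.18% and 2.87% of all promoters, respectively. Such matches describe the letters of these windows only.

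Among other enzyme genes of the cycle, listed together with the cytosolic counterparts Aco1 and Mdh1, some rose and others fell. Of 13 such genes, 2 were higher (Aco1 and Sdhb), 4 were lower (Idh3b, Idh3g, Sdhc and Sdhd) and 7 did not pass the test, with a median log2 fold change of 0.070. Over all genes tested, 24.5% were called higher and 23.2% lower. Among genes with a mean of at least 1000 counts, which include all of this list but Ogdhl, 34.7% were higher and 28.3% lower. Whether the list differs from either background was not tested. Aco1 encodes cytosolic aconitase, which isomerises citrate and also serves as an iron sensor. Aco1 rose from 46.2 ± 1.80 to 60.0 ± 3.33 CPM (SD, n = 3 each; log2 fold change 0.38, edgeR adjusted p = 0.000696).

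Subunits of single complexes also differed. IDH3 combines the catalytic Idh3a with the regulatory subunits Idh3b and Idh3g. Idh3b was at 142, 136 and 148 CPM in Th1 cells and 110.3, 110.0 and 105 CPM in treated cells, a fall to 0.765 of the Th1 level (log2 fold change -0.39 with a standard error of 0.069, edgeR adjusted p = 0.000227). Idh3g went from 113, 110 and 115 CPM to 92.5, 90.9 and 89.2 CPM (log2 fold change -0.31 with a standard error of 0.0677, edgeR adjusted p = 0.00131). Per kilobase, the ratio of Idh3a to Idh3b was 0.297, 0.301 and 0.333 in Th1 cells and 0.516, 0.496 and 0.574 with ALX-5407. The ratio of Idh3a to Idh3g was 0.296, 0.294 and 0.338 in Th1 cells and 0.486, 0.474 and 0.534 with ALX-5407. In every library Idh3a thus remained below both regulatory subunits per kilobase of merged exons, an order that depends on the lengths used. Both ratios were higher in every treated culture than in any untreated one (two-sided exact permutation p = 0.1 for either ratio, the smallest possible). As every treated culture lay higher for Idh3a and lower for Idh3b and Idh3g, this outcome was fixed by the levels above. The p-values of both ratios therefore add no support. These ratios, that of Idh1 to Idh2 and those that follow were chosen after their values were seen, among 14 pairs computed, of which 12 did not overlap between groups. The share of gene pairs in general that do not overlap was not computed. Of single genes tested, 28.4% had every treated culture above every untreated one and 27.1% every one below. The 12 pairs include small differences, such as that of Idh3b to Idh3g. Adjusted over the 14 pairs by Benjamini-Hochberg, an exact permutation p of 0.1 became 0.117. Between the regulatory subunits the ratio of Idh3b to Idh3g was 0.994 ± 0.0190 in Th1 cells and 0.942 ± 0.0127 with ALX-5407 (SD, n = 3 each).

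Succinate dehydrogenase, which is also complex II of the respiratory chain, consists of the flavoprotein Sdha, the iron-sulfur protein Sdhb and the membrane anchors Sdhc and Sdhd. Sdhb rose from 71.3, 71.0 and 84.0 CPM to 115, 105 and 107 CPM (log2 fold change 0.53 with a standard error of 0.0806, edgeR adjusted p = 5.11e-05). Sdhd fell from 120, 116 and 119 CPM to 94.9, 93.6 and 87.0 CPM (log2 fold change -0.36 with a standard error of 0.0695, edgeR adjusted p = 0.000414). Sdhc had 114, 110 and 82.5 CPM in Th1 cells and 77.0, 83.5 and 76.0 CPM in treated cells. Its call as lower (log2 fold change -0.37, edgeR adjusted p = 0.00602) came with overlapping groups, as the third Th1 culture lay in the treated range. Sdha was at 236 ± 7.62 and 248 ± 3.65 CPM (SD, n = 3 each) and did not pass the test (adjusted p = 0.419 in edgeR). The ratio of Sdhb to Sdhd per kilobase was 0.351 ± 0.0331 in Th1 cells and 0.652 ± 0.0301 in treated cells (SD, n = 3 each, two-sided exact permutation p = 0.1). That the groups separate in this ratio follows from the levels of Sdhb and Sdhd given above, so its p-value adds no support.

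**Figure D2:**
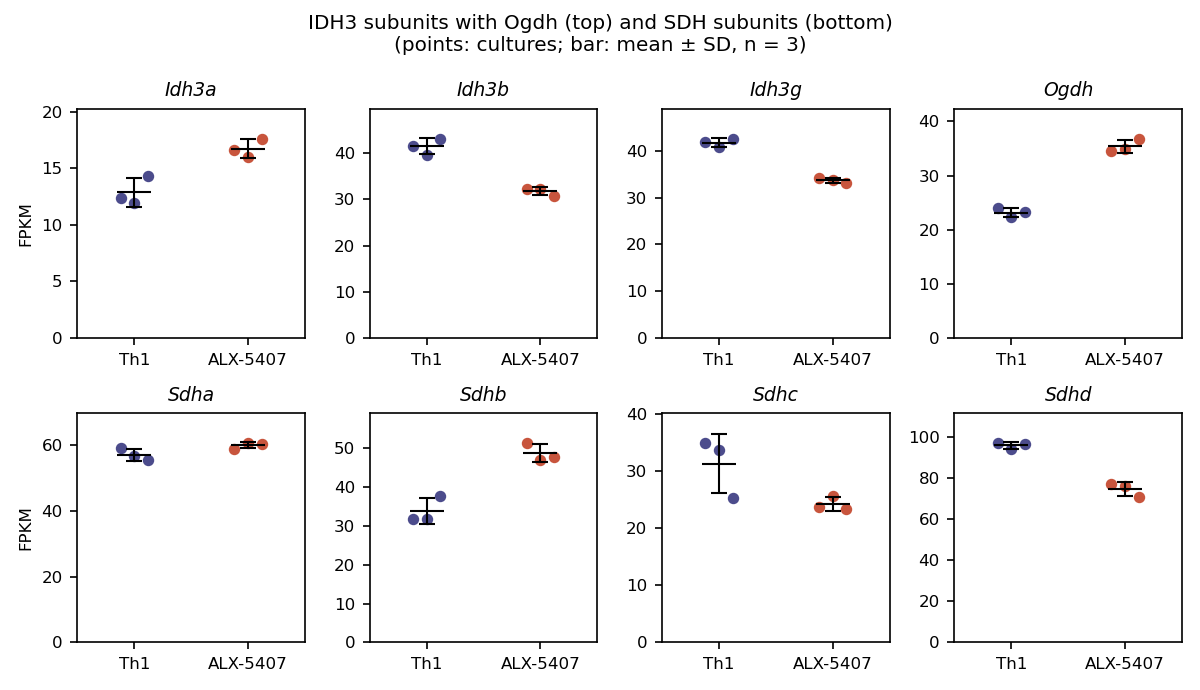
Levels per kilobase (FPKM, linear axis from 0) of the IDH3 subunits and Ogdh (top row) and of the SDH subunits (bottom row) in 3 Th1 and 3 ALX-5407-treated cultures; points are cultures and bars the mean ± SD. Idh3a and Sdhb lie higher in treated cultures while Idh3b, Idh3g and Sdhd lie lower, and the third Th1 culture of Sdhc falls within the treated range.

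In the 2-oxoglutarate dehydrogenase complex the other subunits did not pass the test with Ogdh: the E2 gene Dlst was at 114 ± 5.73 and 124 ± 5.22 CPM, and the E3 gene Dld at 93.8 ± 14.8 and 106 ± 4.14 CPM (SD, n = 3 each; adjusted p = 0.175 and 0.136 from edgeR). Dld passed in 3 of 15 alternative analyses, and its log2 fold change of 0.18 went to 0.288 without the third Th1 culture, where it passed, and to 0.068 without the first. Dlst passed in 1 of the 15, with library totals. Ogdhl, a relative of Ogdh, had a mean of under 1 CPM in both groups. The ratio of Ogdh to Dlst per kilobase was 1.95 ± 0.137 in Th1 cells and 2.73 ± 0.0329 in treated cells (SD, n = 3 each; two-sided exact permutation p = 0.1). The beta subunits of succinyl-CoA ligase, Suclg2 and Sucla2, did not pass either, like Suclg1 (log2 fold changes 0.084 and 0.023). Cytosolic malate dehydrogenase, Mdh1, was at 191 ± 25.6 and 184 ± 3.18 CPM (SD, n = 3 each; edgeR adjusted p = 0.674).

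At the entry of pyruvate, 4 of 14 tested genes rose (Pcx, Dlat, Pdp2 and Pdhx), 1 fell (Ldha) and 9 did not pass the test, beside 24.5% higher and 23.2% lower over all genes, so that the number of rises is near that background. The largest rise was that of Pcx, pyruvate carboxylase, which converts pyruvate directly to oxaloacetate. Pcx was at 55.8, 50.3 and 50.7 CPM in Th1 cells and 91.1, 99.7 and 85.6 CPM in treated cells, a 1.76-fold difference (log2 fold change 0.82 with a standard error of 0.0798, edgeR adjusted p = 4.97e-07). Within the pyruvate dehydrogenase complex, the E2 gene Dlat rose from 52.0 ± 2.24 to 76.0 ± 2.98 CPM (SD, n = 3 each; log2 fold change 0.55, edgeR adjusted p = 1.42e-05). Pdhx, which binds E3 to the core, rose from 11.98, 9.41 and 11.7 CPM to 13.9, 13.3 and 14.2 CPM (log2 fold change 0.32, adjusted p = 0.0382 in edgeR). The E1 beta gene Pdhb, like Pdha1, did not pass the test (log2 fold change -0.028, adjusted p = 0.794 in edgeR). The ratio of Dlat to Pdha1 per kilobase was 0.260 ± 0.0173 in Th1 cells and 0.395 ± 0.0158 in treated cells (SD, n = 3 each; two-sided exact permutation p = 0.1).

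Kinases inactivate the complex and phosphatases reactivate it. Pdp2, a phosphatase, rose from 18.7 ± 0.379 to 28.9 ± 2.86 CPM (SD, n = 3 each; log2 fold change 0.63, adjusted p = 5.79e-05 in edgeR). The kinase Pdk1, which had the most reads of the kinase genes, was at 329, 308 and 348 CPM in Th1 cells and 289, 295 and 288 CPM in treated cells. The groups did not overlap, but the difference fell just short of the threshold (log2 fold change -0.18, edgeR adjusted p = 0.0506) and passed it in 8 of 15 alternative analyses. Pdk2, Pdk3, Pdp1 and Pdpr did not pass the test, and Pdk4 was too low to be tested. The pyruvate carrier genes Mpc1 and Mpc2 had log2 fold changes of -0.091 and -0.0088 and did not pass. Ldha, the lactate dehydrogenase gene that dominates in activated T cells, fell from 3454 ± 181 to 2974 ± 152 CPM (SD, n = 3 each; log2 fold change -0.22, adjusted p = 0.0206 in edgeR). The call on Ldha was lost without the first Th1 culture, without any 1 of the treated cultures and with library totals in place of TMM, and that on Pdhx in 7 of 15 alternatives.

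**Figure D3:**
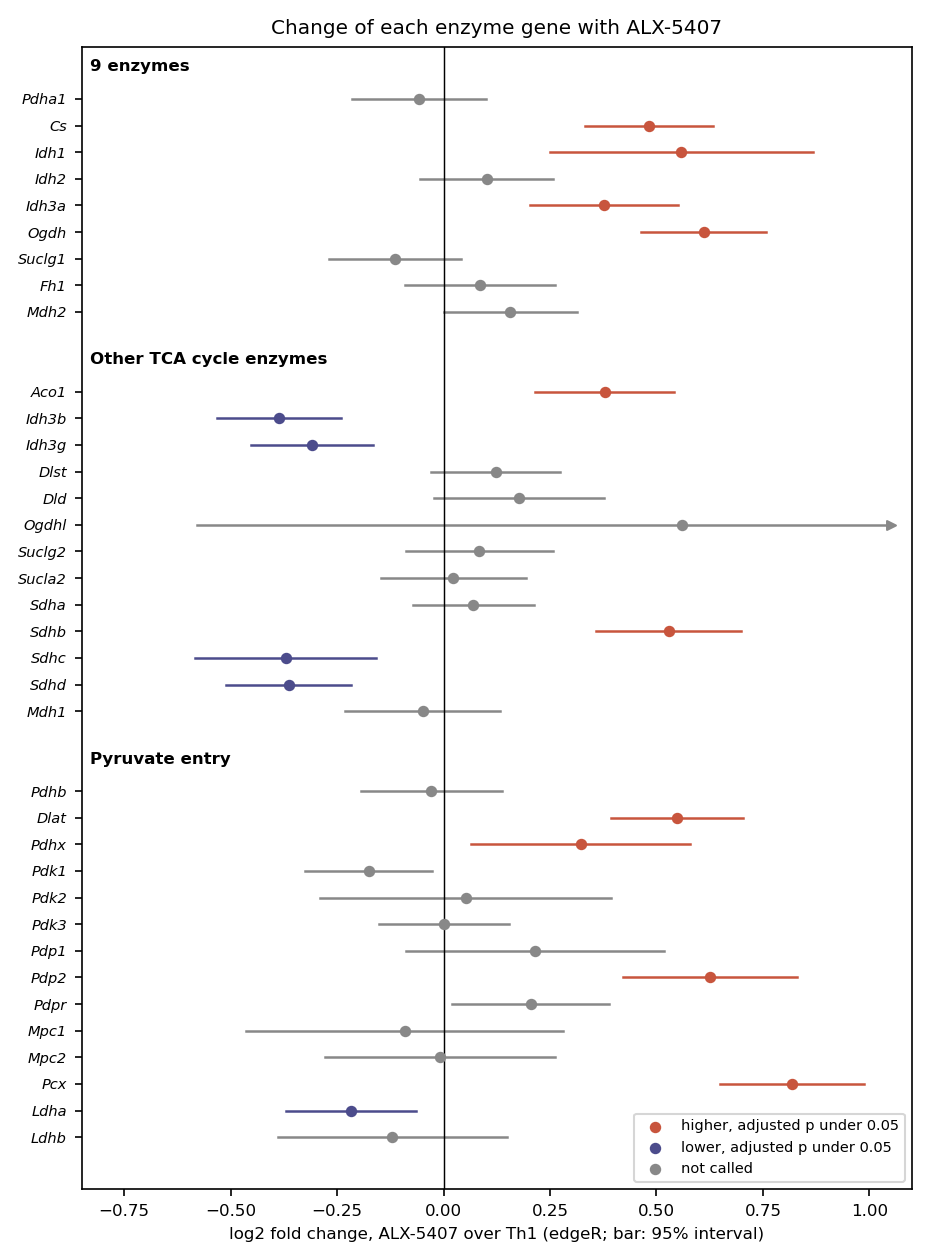
Log2 fold change of ALX-5407-treated over untreated Th1 cells with its 95% interval (edgeR) for the 9 enzymes, 13 other TCA cycle enzymes and 14 genes of pyruvate entry. The 13 include the cytosolic counterparts Aco1 and Mdh1. Red marks genes called higher, blue genes called lower and grey genes not called. Calls in both directions stand within single complexes, such as Idh3a (0.38) with Idh3b (-0.39), and the interval of Ogdhl runs past the axis (arrow).

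Other enzymes and mitochondrial carriers feed the cycle with carbon from glutamine and other amino acids or export its intermediates. Of 25 such genes 20 were tested, of which 10 were higher, 4 lower and 6 not called (24.5% higher and 23.2% lower over all genes), with a median log2 fold change of 0.263. Pck2, mitochondrial phosphoenolpyruvate carboxykinase, which withdraws oxaloacetate, rose from 96.0 ± 1.73 to 180.3 ± 9.23 CPM (SD, n = 3 each; log2 fold change 0.91, adjusted p = 4.59e-08 in edgeR). The dicarboxylate carrier Slc25a10 rose 2.11-fold from a low level of 5.58 ± 0.315 to 11.8 ± 0.922 CPM (SD, n = 3 each; edgeR adjusted p = 5.76e-06) and was the 1 gene of the cycle, pyruvate entry, lipoylation and feeding lists past the fold threshold. The aspartate-glutamate carrier Slc25a12 and the mitochondrial alanine transaminase Gpt2 rose with log2 fold changes of 0.61 and 0.58 (adjusted p = 1.44e-05 and 2.01e-05 in edgeR). The largest fall was that of Gls2, a glutaminase, from 67.0, 55.4 and 67.2 CPM to 33.8, 34.9 and 31.1 CPM (log2 fold change -0.93, adjusted p = 4.80e-07 in edgeR). The glutamate carrier Slc25a22 (-0.67), the cytosolic aspartate transaminase Got1 (-0.34) and glutamate dehydrogenase Glud1 (-0.30) were lower too, and the largest of their adjusted p-values in edgeR was 0.00166. The mitochondrial aspartate transaminase Got2, chosen after its values were seen as the partner of Got1 in the malate-aspartate shuttle, rose from 160.0 ± 12.1 to 229 ± 2.70 CPM (SD, n = 3 each; log2 fold change 0.52, edgeR adjusted p = 2.31e-05).

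**Figure D4:**
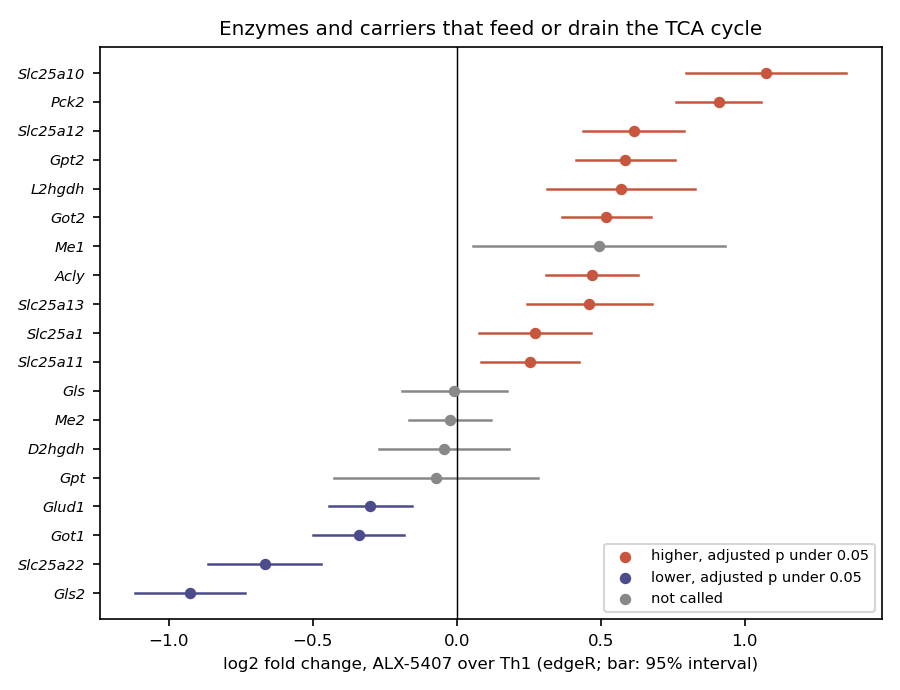
Log2 fold change of ALX-5407-treated over untreated Th1 cells with its 95% interval (edgeR) for the 19 genes of the list of enzymes and carriers around the TCA cycle with a mean of at least 50 counts, ordered by fold change. Slc25a10 (1.07) and Gls2 (-0.93) stand at the ends, and colours mark calls as higher (red), lower (blue) or none (grey).

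Of 8 genes for lipoylation and SDH assembly, 2 rose and 6 did not pass, close to the 24.5% of all genes called higher. The lipoyl carrier Gcsh, the H protein of glycine cleavage, rose from 13.5, 15.3 and 16.2 CPM to 21.01, 20.1 and 22.3 CPM (log2 fold change 0.49, edgeR adjusted p = 0.000983). Lipt2, which attaches the lipoyl precursor, was near 1 CPM in Th1 cells and 1.85 ± 0.242 CPM in treated cells (SD, n = 3; log2 fold change 0.81, edgeR adjusted p = 0.0273), a call that was lost without the second or the third Th1 culture or the first treated one and in DESeq2.

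Beside the TCA cycle, 19 entries for glycolytic enzyme genes were tested, Aldoa having more than 1 gene identifier. Of these entries 1 was higher and 8 lower, with a median log2 fold change of -0.147. Of 70 tested nuclear genes for respiratory chain subunits, 3 were higher and 35 lower, with a median of -0.256. Over all genes tested, 24.5% were higher and 23.2% lower. The difference between these lists and the 9 enzymes was not tested. Short genes tended to lower fold changes in these libraries: the median log2 fold change was -0.311 for 227 protein-coding genes with exons of under 1000 bases in all and a mean of at least 50 counts, and 0.0883 for 2706 genes of 4000 to 6000 bases. Merged exon lengths were 5779 bases for Cs, 5456 for Ogdh, 5072 for Idh3a, 2771 for Idh1 and 1231 for Sdhd. With offsets for gene length and GC content in the fit, an alternative chosen after seeing the data, Cs had a log2 fold change of 0.39, Idh1 0.635, Idh3a 0.31 and Ogdh 0.488. Idh3b (-0.399), Idh3g (-0.307) and Sdhb (0.545) moved little, and all these calls held, whereas the log2 fold change of Sdhd went to -0.155 (edgeR adjusted p = 0.0398).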

How the data were processed

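RNA sequencing libraries from 6 cultures were analysed. The authors deposited raw counts, whole numbers of reads per gene and library, unnormalized and with replicates kept apart. The file also gives gene lengths, another deposited column, which equal merged exons in GENCODE M21 for 98% of genes. The submitters' processing notes name fastp, HISAT2 2.0.5, featureCounts 1.5.0-p3 and mm10. The settings for strand and for reads that map to several places are not given in the sources used here, so counts of genes with overlapping exons are uncertain. The labels describe poly-T capture of RNA, the study's methods depletion of ribosomal RNA.

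edgeR 4.0.16 (R 4.3.3) was run with filterByExpr (minimum count 10, minimum total 15), TMM, the quasi-likelihood F test and Benjamini-Hochberg adjustment over 15938 genes, and the procedure was tested on simulated data. In the simulation, 67, 67 and 66 genes were given absolute log2 fold changes of 0.4, 0.6 and 1. Of these 64.2%, 70.1% and 87.9% were called, so a gene that did not pass may still have changed. A further 10 genes given no change were called too. The changed genes were drawn from all with a mean of at least 50 counts, so these shares do not describe the 9 enzymes in particular. Far fewer genes were changed in the simulation than were called in the data. The standard error of a log2 fold change is its size divided by the root of its F statistic. DESeq2 1.42.0, limma-voom (limma 3.58.1), other scalings and filters, a replicate block, each replicate left out, protein-coding genes alone and length and GC offsets were alternatives, the last pair (protein-coding genes, offsets) chosen after seeing the data. Replicates were not repeats of one library (chi-square per degree of freedom between replicates 5.35 to 20.2). Copies of the 9 genes were sought with BLAST 2.17.0 (at least 90% identity over 100 bases).

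The 9 genes and the lists were chosen with earlier results of these data known, and 1 gene of the cycle list is not reported here. Named beside the 9 are any genes of the cycle and pyruvate entry lists, up to 4 called genes in each direction of the other lists, Got2 (added after its values were seen), marker genes, and the 3 genes most like the one with the smallest p-value. Promoter windows start from the most upstream RefSeq start within 100 bases of the gene start, or else the nearest. Python 3.11.15 with matplotlib 3.10.9 made the plots.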

Additional observations from a re-analysis of the deposited data

How the results depend on the processing

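Cs, Idh1, Idh3a and Ogdh were called higher in each of 15 alternative analyses, with log2 fold changes of 0.39 to 0.542, 0.431 to 0.698, 0.31 to 0.446 and 0.488 to 0.67, and adjusted p-values of at most 0.0349. Idh2, Suclg1, Fh1 and Pdha1 were called in none of the 15 and Mdh2 in 1, with library totals. With a fold minimum of 1 on the log2 scale, 0 of the 9 enzymes, 0 other TCA cycle enzymes in either direction, 0 pyruvate entry genes in either direction, 0 lipoylation and assembly genes, 1 higher and 0 lower feeding or draining genes, and 536 higher and 1064 lower genes of all (10% together) were called. The count of lower pyruvate entry genes, 1 in the main analysis, was 2 with RLE scaling, DESeq2, limma-voom, the filter at a mean of 50 counts, length and GC offsets or protein-coding genes only, 0 with library totals, and 0 to 2 with 1 culture left out. Higher lipoylation and assembly genes, 2 in the main analysis, numbered 1 in DESeq2 and with the filter at a mean of 50 counts, and 1 to 2 with 1 culture left out. Lower ones, 0 in the main analysis, numbered 1 with length and GC offsets and with protein-coding genes only, and 0 to 1 with 1 culture left out. The cause of these moves was not tested.

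The labels number the replicates of both groups from 1 to 3. Deviations from the group mean across genes had correlations of -0.0084, 0.0036 and 0.0635 between same-numbered cultures. Differently numbered cultures had correlations of -0.0615 to 0.0665. With 3 cultures per group these values cannot show whether the numbers pair the cultures, and the labels do not say. A fit with a replicate block called 4 of the 9 enzymes higher and 0 lower, 2 lower pyruvate entry genes, and 4071 higher and 3833 lower genes of all, against 3910 and 3695 without it.

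Depth limits Idh1 most among the 9 (278 to 593 reads), and genes near 1 CPM, such as Lipt2, more so.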
